A study of Mus musculus with 6 samples.

Results

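The proteasome genes of mouse bone marrow cells were examined in 2 sorted populations, as the transcripts of the core, cap, activator and chaperone proteins of the protein-degrading complex. Members were the entries whose gene symbol starts with Psm, a letter from a to g and a digit, apart from Psmb8 and Psmb9, and these made 51 of 25955 entries in the deposited table. Of the 51, 47 belonged to a proteasome class and 4 carried a similar symbol only: Psmc3ip and the pseudogenes Psmb5-ps, Psmb6-ps and Psmb6-ps2. RNA had been sequenced from 3 libraries of CD51+ cells and 3 libraries of CD44+CD51- cells, numbered 1 to 3 in each group. All came from enzymatically digested bone marrow of C57BL/6 mice, and no genotype or treatment was named for either group. CD51 is integrin alpha V, encoded by Itgav, and CD44 is a hyaluronan receptor. The labels call the cells TNCs without spelling the term out; in this field it stands for marrow cells that lack surface CD45, CD31 and Ter119. Age, sex, and whether libraries came from separate or pooled animals are not stated in the labels.

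The proteasome is a barrel-shaped protease that cuts proteins tagged with ubiquitin into short peptides. Its core is built from rings of alpha subunits, which gate the entrance, and rings of beta subunits, some of which carry the protease activities. A cap of ATPases and non-ATPase subunits recognises, unfolds and feeds in the tagged protein, other activators can take the cap's place, and dedicated chaperones put core and cap together. In blood-forming marrow the complex is known for the heavy protein turnover of maturing erythroid cells and for making the peptides shown to T cells.

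The values were RPKM, a unit of reads corrected for gene length and for library size by the authors; they are given by library in the order 1, 2, 3, or as mean ± SD with n = 3 per group. The library size behind them, estimated from the steps between low values, lay between 12197833 and 32517059 reads. The tested member with the fewest estimated reads in a library, Psma8, had 57 there, and the median over members and libraries was 6221. Along the main axis of a principal component analysis over all genes (84.6% of the variance) the groups parted, and along the next (9.97%) the libraries numbered 1 stood apart from those numbered 2 and 3 in both groups. The counts of members and partner genes called, in all and by class, were therefore repeated without those libraries. Differences were tested with limma on log2(RPKM + 1), with p-values adjusted over all 11741 genes with RPKM of at least 1 in at least 3 libraries and a threshold of 0.05. Of the 51 members, 47 passed that filter: 46 of the 47 in a class, without Psmb11, and Psmc3ip. Log2 changes are CD51+ minus CD44+CD51-, each with its standard error (SE).

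Most proteasome transcripts tested were lower in CD51+ cells, and members of every class were among those that fell. Of the 47 members tested, 32 fell, none rose and 15 did not pass the test, while 29.7% of all genes tested fell and 24.1% rose. The share of members that fell was 68.1%. At an unadjusted p under 0.05, limma called 33 members lower and again 0 higher, but the shares of all genes at that threshold were not counted. The median log2 change of the members was -0.63, from -1.15 to 0.11, with the quartiles at -0.79 and -0.52. The median over all genes was -0.23, with quartiles at -0.64 and 0.54. The members were thus shifted and also narrowly spread.

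All 3 CD51+ libraries lay below all 3 CD44+CD51- libraries for 35 of the 47 members (74.5%), against 37.5% of all genes, and the groups overlapped for the other 12. Between libraries of the same number, 41 of 47 members were lower in CD51+ cells in every pair, against 50.9% of genes. Together the 51 members took 0.751%, 0.791% and 0.892% of the summed RPKM of the CD51+ libraries, against 1.55%, 1.51% and 1.65% of that of the CD44+CD51- libraries. The summed RPKM itself ran from 589810 to 615189 in CD51+ libraries and from 453600 to 516205 in CD44+CD51- libraries. The higher sum in CD51+ libraries widens the gap in shares. The median ratio of means of the tested members, CD51+ over CD44+CD51-, was 0.641. High-level genes as a whole leaned the same way. Among the 1745 genes with a mean RPKM of at least 50, 41.8% fell and the median was -0.53. Of the 36 members at that level, 25 fell, or 69.4%, with a median of -0.63. In bulk RNA, a smaller share of cells of a type and less RNA per cell cannot be told apart.

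How the columns were scaled changed the number of calls but not the sign of the members' median. With TMM scaling (trimmed mean of log ratios), which moved the median of all genes by 0.20 to -0.03, 16 members fell, 0 rose and the median was -0.39, while 19.1% of all genes fell. Quantile normalization moved the median of all genes by -0.13 to -0.36, and 22 members fell, with a median of -0.47 and 38.9% of all genes falling. After each column was scaled to a sum of 1000000, the median of all genes moved by -0.26 to -0.49, and 40 members fell, with a median of -0.95 and 43.6% of all genes falling. Without the libraries numbered 1, 42 members fell, against 34.8% of all genes: 7 of 8 alpha subunits, 7 of 8 beta subunits, 6 of 6 ATPases and 11 of 11 other subunits of the cap, 3 of 6 activators and inhibitors, 7 of 7 chaperones and Psmc3ip. With the replicate number as a block, 41 fell, against 41.3% of all genes, and with TMM scaling and block together 34 fell, against 31.2%. By contrast, leaving out CD51+ library 2, or CD44+CD51- library 2 or 3, left 16 members called, against 21.9%, 21.9% and 21.7% of all genes. The 13 members called lower under each of the 17 alternatives were Psma7, Psmd1, Psmd4, Psmd7, Psmd11, Psme3, Psmf1, Psmd5, Psmd9, Psmg1, Psmg2, Psmg3 and Psmc3ip. The share of all genes called lower under all 17 was not counted.

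**Figure D1:**
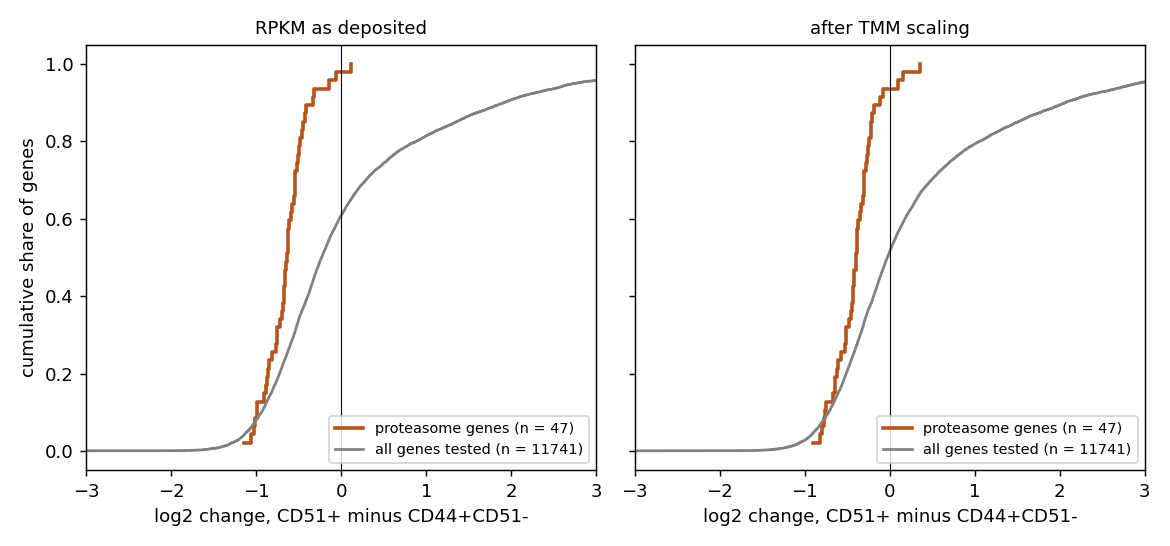
Cumulative share of genes (y axis) by log2 change, CD51+ minus CD44+CD51- (x axis, cut at -3 and 3), for the 47 proteasome genes tested (orange) and all 11741 genes tested (grey), with RPKM as deposited on the left and after TMM scaling on the right. With RPKM as deposited 46 of 47 members lie below 0 and the members' median is -0.63; after TMM scaling 44 lie below 0 and the median is -0.39.

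The 2 populations also differed in marker genes of several cell types, and the part of these differences in the lower proteasome transcripts was not tested. Summed RPKM of 8 mesenchymal stromal markers, such as Cxcl12, Lepr and Col1a1, ran from 23648.5 to 30133.3 in CD51+ libraries and from 10.2 to 79.3 in CD44+CD51- libraries, and all 8 rose. The 7 neutrophil and monocyte markers, led by S100a8 and S100a9, summed to 67380.5 to 74547.8 in CD51+ libraries, against 4674.1 to 21933.0 in CD44+CD51- libraries, and all 7 rose. With quantile normalization S100a8 and S100a9 did not pass (limma adjusted p = 0.0832 and 0.109), while the others did. Without the libraries numbered 1, 6 of the 7 rose and Elane did not pass (adjusted p = 0.0508). The 6 white blood cell markers, among them Ptprc, which encodes CD45, summed to 791 to 1064.9 in CD51+ libraries, against 183 to 423 in CD44+CD51- libraries, and all 6 rose. Of 8 erythroid markers, 5 fell (Klf1, Gata1, Car1, Tfrc and Epor) and 2 rose (Hbb-bs and Alas2), with sums of 4345.1 to 6654.1 in CD51+ libraries and 6142.5 to 7548.0 in CD44+CD51- libraries. Without the libraries numbered 1, Alas2 did not pass (limma adjusted p = 0.0519), and the same 5 fell. Of 7 B lineage markers tested out of 8, 6 fell and Ebf1 did not pass (adjusted p = 0.163, or 0.00619 and higher with the replicate block), with sums of 63.2 to 117 in CD51+ libraries, against 250.2 to 745 in CD44+CD51- libraries. Of 6 proliferation genes, Mki67, Ccnb1 and Mcm5 fell and none rose (Pcna fell as well with the replicate block, adjusted p = 0.00138), with sums of 332 to 507 in CD51+ libraries and 635 to 819 in CD44+CD51- libraries. Of the 4 endothelial markers, 1 passed the filter and did not pass the test, with sums of 3.11 to 4.80 in CD51+ libraries, against 1.27 to 5.69 in CD44+CD51- libraries, and Cdh5 was listed at 0 in CD44+CD51- libraries 1 and 3. Itgav rose, while Cd44 did not pass the test.

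**Figure D2:**
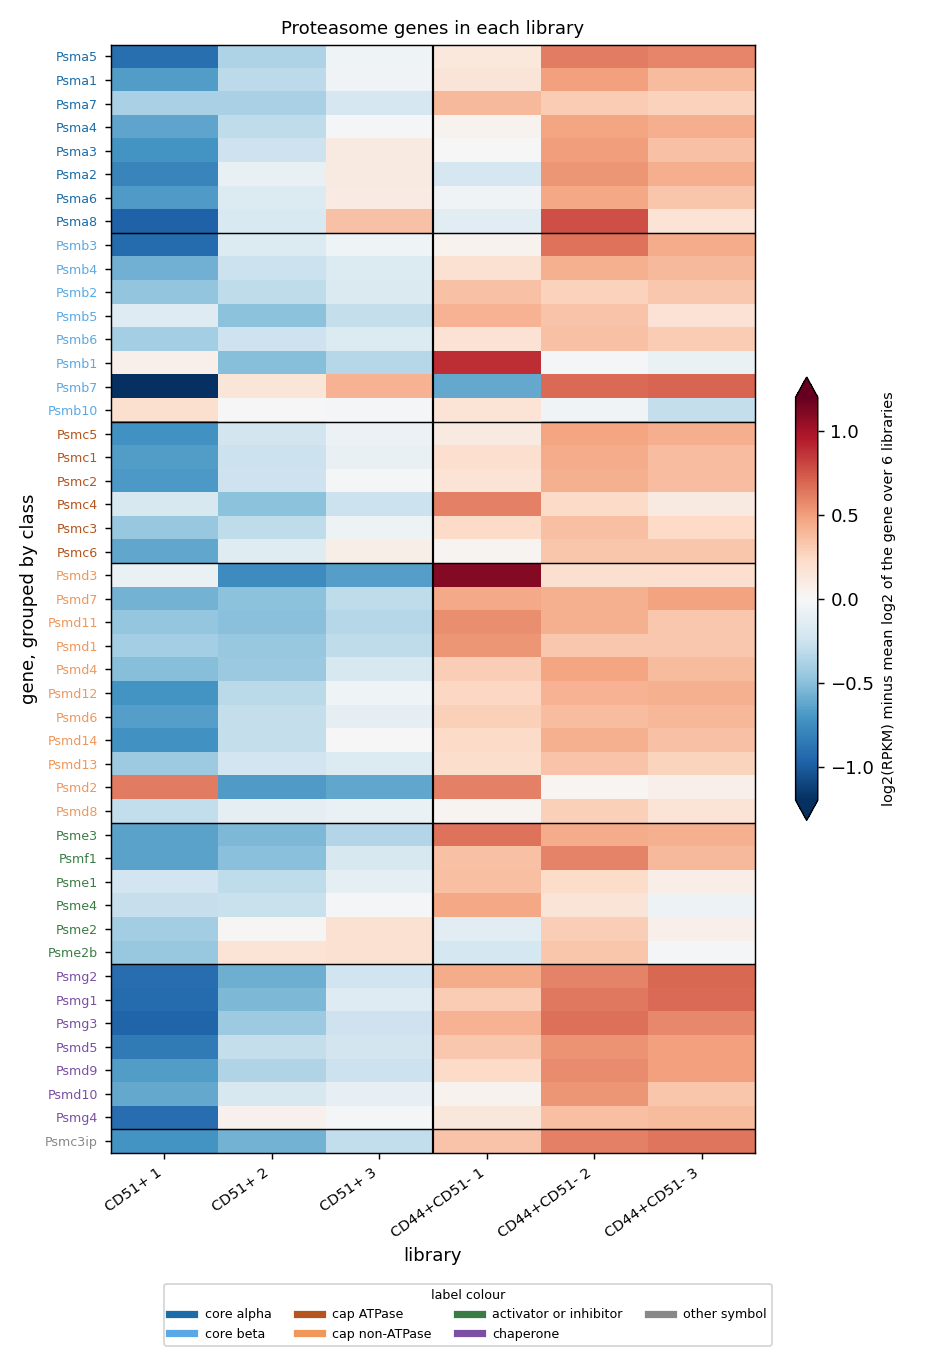
Level of each of the 47 proteasome genes tested (rows, grouped by class and ordered by log2 change within it) in each library (columns, CD51+ left of the black line), as log2(RPKM) minus the gene's mean over the 6 libraries. CD51+ columns are mostly blue and CD44+CD51- columns mostly red. For 35 of 47 genes all CD51+ libraries lie below all CD44+CD51- libraries, against 37.5% of all genes. The libraries numbered 1 differ from 2 and 3 in both groups for Psmb7, Psmd2, Psmb1 and Psmd3, among others.

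Promoter sequences were looked at next, since 46 of the 47 members tested had a negative change. The part of promoter sequences in these changes was not tested. RefSeq windows of build GRCm38.p6, from 250 bases before to 50 bases after the transcript start, were on hand for 40 of the 51 members; those without were Psma8, Psmb1, Psmb2, Psmb7, Psmc3, Psmd3, Psmd7, Psmg2, Psmb5-ps, Psmb6-ps and Psmb6-ps2. On both strands, 8 motifs were searched, and each share is set beside that of 27025 genes, a gene with several windows counting where any of them held the motif. Those genes include many that were not among the 11741 tested, and no share among tested genes was taken. CCGGAAG, a core of the sites bound by ETS-family factors, stood in the windows of 15 members (37.5%), against 9.93% of all genes. The interferon-stimulated response element, a motif known from interferon-induced genes, stood in 5 (12.5%), against 3.99%. TGACNNNGC, the core of the antioxidant response element through which Nfe2l1 and Nfe2l2 act, stood in 6 (15%), against 14%. The other motifs had shares of 35% against 41.1% for CCAAT, 2.5% against 5.95% for TGACTCA, 10% against 8.09% for CACGTG, 12.5% against 12.9% for GGGGCGGGG, and 5% against 9.55% for TTCNNNGAA. A stretch can count for both TGACNNNGC and TGACTCA, as they share letters. Of the 15 members with CCGGAAG, 11 fell, and of all 40 members with a window, 27 fell, where 29.7% of all genes tested did. Without the libraries numbered 1 these counts were 14 and 35, where 34.8% of all genes tested fell. The 40 include Psmb11, which was not tested. How many of all genes with CCGGAAG fell was not counted. The motifs found are matches of letters and not bound sites.

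CCGGAAG was the motif whose share in members lay furthest above that in all genes, which was seen before the stretches were chosen. The 40 bases around it are shown for 3 members that fell (Psmg1, a core chaperone; Psme3, an activator; Psmd4, a ubiquitin receptor of the cap) and 3 that did not pass the test (Psmd2, Psmc6 and Psma6), with the motif, or its reverse complement CTTCCGG, in capitals. All lie outside annotated exons and upstream of a RefSeq start, which for Psma6 is a downstream start, so that its stretch falls inside the span of the gene (chromosome 12, 55384222 to 55418454).
Psmg1, chr16:95991007-95991046, minus strand, motif 69 bases before the start: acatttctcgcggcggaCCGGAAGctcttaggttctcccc
Psme3, chr11:101316089-101316128, plus strand, motif 107 bases before the start: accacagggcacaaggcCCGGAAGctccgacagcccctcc
Psmd4, chr3:95042717-95042756, minus strand, motif 125 bases before the start: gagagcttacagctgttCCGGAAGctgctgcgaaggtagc
Psmd2, chr16:20651609-20651648, plus strand, motif 26 bases before the start: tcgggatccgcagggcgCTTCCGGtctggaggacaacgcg
Psmc6, chr14:45329707-45329746, plus strand, motif 100 bases before the start: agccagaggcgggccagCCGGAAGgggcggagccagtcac
Psma6, chr12:55398676-55398715, plus strand, motif 132 bases before the start: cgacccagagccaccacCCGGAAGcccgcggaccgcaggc
The 3 genes that did not pass are not a settled contrast to the others. Without the libraries numbered 1 all 3 fell (adjusted p = 0.0037 for Psmd2, 0.0407 for Psmc6 and 0.0479 for Psma6), and with the replicate block Psmc6 and Psma6 fell (adjusted p = 0.0176 and 0.0249).

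Of the 8 alpha subunits of the core, 4 fell and 4 did not pass, where 29.7% of all genes fell. The median log2 change of the subunits was -0.59. With TMM scaling only Psma7 passed, where 19.1% of all genes fell, and the median was -0.35. Summed RPKM of the 8 genes was 897, 1236.2 and 1470.5 in CD51+ libraries, against 1489.1, 2034.5 and 1911.6 in CD44+CD51- libraries. Every CD51+ sum lay below every CD44+CD51- sum, by a small margin between CD51+ library 3 and CD44+CD51- library 1. Psma5 changed most in this class, at 101, 146 and 182 RPKM in CD51+ libraries, against 206, 289.5 and 284 RPKM in CD44+CD51- libraries (log2 change -0.88 ± 0.26, adjusted p = 0.025). The CD51+ libraries were all below the CD44+CD51- libraries, and library 1 was the lowest of each group. Psma2 had the highest level of the class, at 218, 355 and 408 RPKM in CD51+ libraries, against 328, 545 and 509.7 RPKM in CD44+CD51- libraries. CD51+ libraries 2 and 3 overlapped the CD44+CD51- range, and the change of -0.51 ± 0.31 did not pass (adjusted p = 0.203).

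Psma1, Psma4 and Psma7 fell as well. Psma7 averaged 152 ± 11.7 RPKM in CD51+ cells and 238 ± 9.61 RPKM in CD44+CD51- cells, with a change of -0.64 ± 0.15 (adjusted p = 0.00898). Psma1 averaged 154 ± 33.0 RPKM in CD51+ cells and 246 ± 29.2 RPKM in CD44+CD51- cells (log2 change -0.68 ± 0.21, adjusted p = 0.028). Psma4 averaged 70.0 ± 14.7 RPKM in CD51+ cells and 108 ± 16.9 RPKM in CD44+CD51- cells (log2 change -0.62 ± 0.21, adjusted p = 0.0383). Psma3, at 66.2 ± 18.5 RPKM in CD51+ cells and 96.5 ± 16.7 RPKM in CD44+CD51- cells, and Psma6, at 286 ± 74.4 RPKM in CD51+ cells and 398 ± 68.9 RPKM in CD44+CD51- cells, had changes of -0.56 ± 0.24 and -0.50 ± 0.26 and did not pass. With replicate numbers as a block in limma, Psma2, Psma3 and Psma6 passed as lower, with adjusted p = 0.0202, 0.00999 and 0.0249.

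Psma8, an alpha subunit best known from the testis, where it takes the place of Psma7, was the lowest of the tested members. It had 1.89, 3.25 and 4.72 RPKM in CD51+ libraries, against 3.38, 6.33 and 4.15 RPKM in CD44+CD51- libraries. The groups overlapped, 2 of 3 same-numbered pairs were lower in CD51+ cells, and the change of -0.41 ± 0.30 did not pass (adjusted p = 0.28). Psmb11, the beta subunit found in thymus epithelium, was listed at 0 in all 6 libraries.

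Of the 8 beta subunits tested, 4 fell, against 29.7% of all genes, and the median log2 change of the subunits was -0.58. With TMM scaling only Psmb4 passed, where 19.1% of all genes fell, and the median was -0.34. Summed RPKM was 1499.9, 1405.1 and 1540.9 in CD51+ libraries, against 2477.4, 2109.6 and 2014.4 in CD44+CD51- libraries, with no overlap. Psmb5 carries the chymotrypsin-like activity, the target of the drug bortezomib. It had 164, 129.5 and 149 RPKM in CD51+ libraries, against 243, 232 and 206 RPKM in CD44+CD51- libraries, and fell by 0.62 on the log2 scale (SE 0.16, adjusted p = 0.0162). Psmb6, with the caspase-like activity, had 175, 194 and 206 RPKM in CD51+ libraries, against 260.3, 294 and 285 RPKM in CD44+CD51- libraries (log2 change -0.55 ± 0.15, adjusted p = 0.0218). For both genes the highest CD51+ library lay below the lowest CD44+CD51- library.

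Psmb7, with the trypsin-like activity, had 10.6, 29.3 and 35.4 RPKM in CD51+ libraries, against 17.3, 42.3 and 42.9 RPKM in CD44+CD51- libraries. The libraries numbered 1 were far below libraries 2 and 3 in both groups, the groups overlapped, and the change of -0.48 ± 0.51 did not pass (adjusted p = 0.45). CD51+ was nonetheless lower in each of the 3 same-numbered pairs. Psmb7 passed as lower with the replicate block (adjusted p = 0.0111) and without the libraries numbered 1 (log2 change -0.39, adjusted p = 0.0406), and was at 0.023 when CD51+ library 1 alone was left out (adjusted p = 0.965). Part of its exons, 11.8% of the bases, overlaps Nek6 on the opposite strand, and the library kit does not usually keep strand.

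Psmb10 replaces Psmb7 in the immunoproteasome, the interferon-inducible form of the core. It was the one tested member with a positive value, at 109.9, 96.2 and 95.4 RPKM in CD51+ libraries, against 108, 93.5 and 79.0 RPKM in CD44+CD51- libraries. The groups overlapped, but CD51+ was the higher of each same-numbered pair. Its log2 change of 0.11 ± 0.16 did not pass (adjusted p = 0.585) and turned to -0.21 when columns were scaled to a common sum. With TMM scaling and the replicate block together it passed as higher (log2 change 0.35, adjusted p = 0.0098), where 33.4% of all genes did. Of 10 interferon response genes listed, 6 rose, where 24.1% of all genes did. With the replicate block Irf7 and Isg15 rose too (adjusted p = 0.0236 and 0.00177), where 27.8% of all genes did. Tap1 and Nlrc5 were lower in CD51+ cells but did not pass (log2 change -0.29 and -0.25, adjusted p = 0.142 and 0.116). Without the libraries numbered 1, Tap1 fell (log2 change -0.36, adjusted p = 0.0247). The summed RPKM of the 10 genes ran from 4739.6 to 14451.8 in CD51+ libraries and from 1715.8 to 2468.0 in CD44+CD51- libraries, mostly from B2m. The part of these genes in the level of Psmb10 was not tested.

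The level of Psmb10 relative to Psmb7, taken within each library as a difference of log2(RPKM + 1), was 3.25, 1.68 and 1.41 in CD51+ libraries, against 2.57, 1.12 and 0.87 in CD44+CD51- libraries. The spread came from the libraries numbered 1, which were the highest of both groups. The group difference of 0.59 gave an exact two-sided permutation p = 0.5, where 3 against 3 cannot go below 0.1. Pair by pair the difference was 0.68, 0.56 and 0.54, all in favour of CD51+, with an exact sign-flip p = 0.25, which is the smallest that 3 pairs can give.

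The structural beta subunits Psmb1, Psmb2, Psmb3 and Psmb4 carry no protease activity. Psmb1 had the highest level of all members, at 599, 402 and 454 RPKM in CD51+ libraries, against 1063.0, 566 and 543 RPKM in CD44+CD51- libraries. The 1 high value of CD44+CD51- library 1 set the mean there; CD51+ library 1 overlapped the other libraries of CD44+CD51-, and the change of -0.53 ± 0.32 did not pass (adjusted p = 0.201, or 0.0337 with the replicate block). Psmb3 had the largest change of the class, at 78.9, 134 and 145 RPKM in CD51+ libraries, against 155, 235 and 204 RPKM in CD44+CD51- libraries. The groups did not overlap, yet the change of -0.76 ± 0.28 missed the threshold (adjusted p = 0.054, or 0.00262 with the block). Psmb2 fell, averaging 277 ± 28.3 RPKM in CD51+ cells and 429 ± 10.6 RPKM in CD44+CD51- cells (log2 change -0.63 ± 0.17, adjusted p = 0.016). Psmb4 also fell, averaging 136 ± 19.3 RPKM in CD51+ cells and 215 ± 19.5 RPKM in CD44+CD51- cells (log2 change -0.66 ± 0.17, adjusted p = 0.0158).

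**Figure D3:**
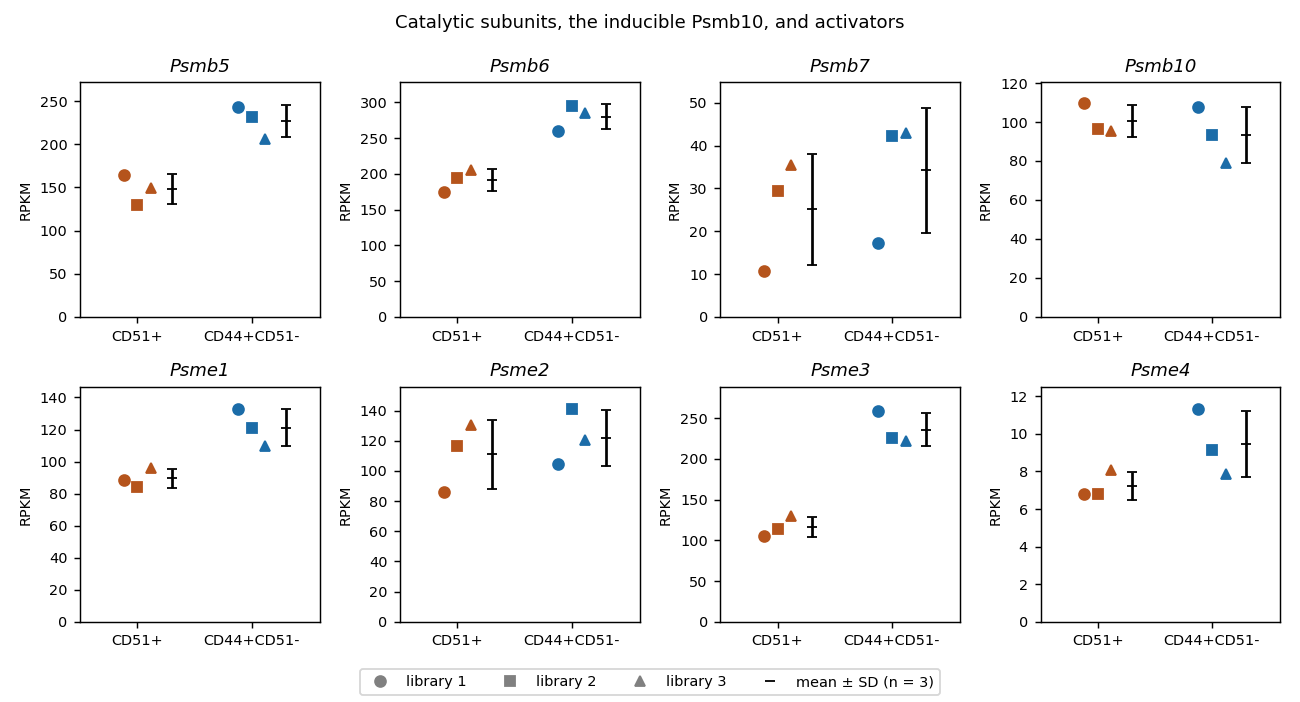
RPKM (y axes, from 0) of the catalytic subunits Psmb5, Psmb6 and Psmb7, the inducible Psmb10 and the activators Psme1 to Psme4 in CD51+ (orange, left) and CD44+CD51- (blue, right) libraries; marker shape gives the library number, and black bars mean ± SD (n = 3). Psmb5, Psmb6, Psme1 and Psme3 do not overlap between groups, Psmb10 and Psme2 lie at similar levels in both, and the libraries numbered 1 are low for Psmb7.

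Of the 6 ATPases that unfold the substrate, 5 fell, against 29.7% of all genes, and the ATPases' median log2 change was -0.63. With TMM scaling none passed, where 19.1% of all genes fell, and the median of the ATPases was -0.39. Their summed RPKM was 541, 655 and 752 in CD51+ libraries, against 934, 1035.0 and 988 in CD44+CD51- libraries, with no overlap. Psmc5 had both the highest level and the largest change of the class, at 107, 153 and 169.7 RPKM in CD51+ libraries, against 192, 247 and 241 RPKM in CD44+CD51- libraries (log2 change -0.68 ± 0.22, adjusted p = 0.035). No CD51+ library reached the CD44+CD51- range. Psmc6 had the smallest change, at 72.3, 101 and 117 RPKM in CD51+ libraries, against 114, 140.4 and 140.0 RPKM in CD44+CD51- libraries. CD51+ library 3 lay above CD44+CD51- library 1, and the change of -0.46 ± 0.21 did not pass (adjusted p = 0.107, or 0.0176 with the block). Psmc1, Psmc2, Psmc3 and Psmc4 fell by 0.67, 0.63, 0.55 and 0.63 on the log2 scale, with adjusted p = 0.0227, 0.0309, 0.0237 and 0.0246. Psmc4 was the ATPase whose libraries numbered 1 were the highest of both groups, at 112, 91.1 and 107 RPKM in CD51+ libraries, against 195, 150.3 and 138 RPKM in CD44+CD51- libraries.

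Of the 11 non-ATPase subunits of the cap, 9 fell, against 29.7% of all genes, and the subunits' median log2 change was -0.72. With TMM scaling 6 passed, where 19.1% of all genes fell, and the median of the subunits was -0.47. Their summed RPKM was 961, 871 and 974 in CD51+ libraries, against 1595.2, 1479.3 and 1469.1 in CD44+CD51- libraries. The gap between groups was wide against the spread within them. Psmd7, which sits beside the deubiquitinating enzyme Psmd14, had the highest level, at 183, 192 and 219 RPKM in CD51+ libraries, against 372, 363 and 378 RPKM in CD44+CD51- libraries, and fell by 0.91 (SE 0.16, adjusted p = 0.00299). Psmd14 itself, which strips ubiquitin from the substrate, averaged 78.2 ± 19.2 RPKM in CD51+ cells and 122 ± 8.22 RPKM in CD44+CD51- cells (log2 change -0.67 ± 0.20, adjusted p = 0.0292). Psmd4, a ubiquitin receptor whose promoter stretch is given above, averaged 80.9 ± 9.55 RPKM in CD51+ cells and 137 ± 8.56 RPKM in CD44+CD51- cells (log2 change -0.76 ± 0.15, adjusted p = 0.00497).

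Psmd3, a lid subunit, had the largest change of the cap, at 86.2, 54.1 and 57.7 RPKM in CD51+ libraries, against 196, 104 and 105 RPKM in CD44+CD51- libraries (log2 change -0.99 ± 0.30, adjusted p = 0.0288). The groups did not overlap, but library 1 was far above libraries 2 and 3 in each group. Without CD51+ library 2 the change was -0.86 (adjusted p = 0.0973), without CD51+ library 3 it was -0.91 (adjusted p = 0.0867), and with TMM scaling -0.74 (adjusted p = 0.109). Psmd8, another lid subunit, had the smallest change, at 70.5, 80.2 and 81.9 RPKM in CD51+ libraries, against 88.2, 106 and 96.8 RPKM in CD44+CD51- libraries. Although its groups did not overlap, the change of -0.32 ± 0.14 did not pass (adjusted p = 0.1, or 0.0457 with the block).

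Of the 2 scaffold subunits of the cap base, Psmd1 passed the test and Psmd2 did not. Psmd1 had 39.8, 38.5 and 42.7 RPKM in CD51+ libraries, against 76.3, 66.0 and 66.0 RPKM in CD44+CD51- libraries and fell by 0.77 (SE 0.13, adjusted p = 0.00301). Psmd2 had 242, 98.0 and 102 RPKM in CD51+ libraries, against 240.0, 160.0 and 164 RPKM in CD44+CD51- libraries. CD51+ library 1 was the highest of all 6, and the change of -0.46 ± 0.37 did not pass (adjusted p = 0.333), while without the libraries numbered 1 it was -0.69 (adjusted p = 0.0037). The other lid subunits Psmd6, Psmd11, Psmd12 and Psmd13 fell by 0.70, 0.85, 0.72 and 0.55 on the log2 scale, with adjusted p = 0.0133, 0.00188, 0.0176 and 0.0142. Psmd11 averaged 27.6 ± 1.64 RPKM in CD51+ cells and 50.5 ± 3.98 RPKM in CD44+CD51- cells.

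**Figure D4:**
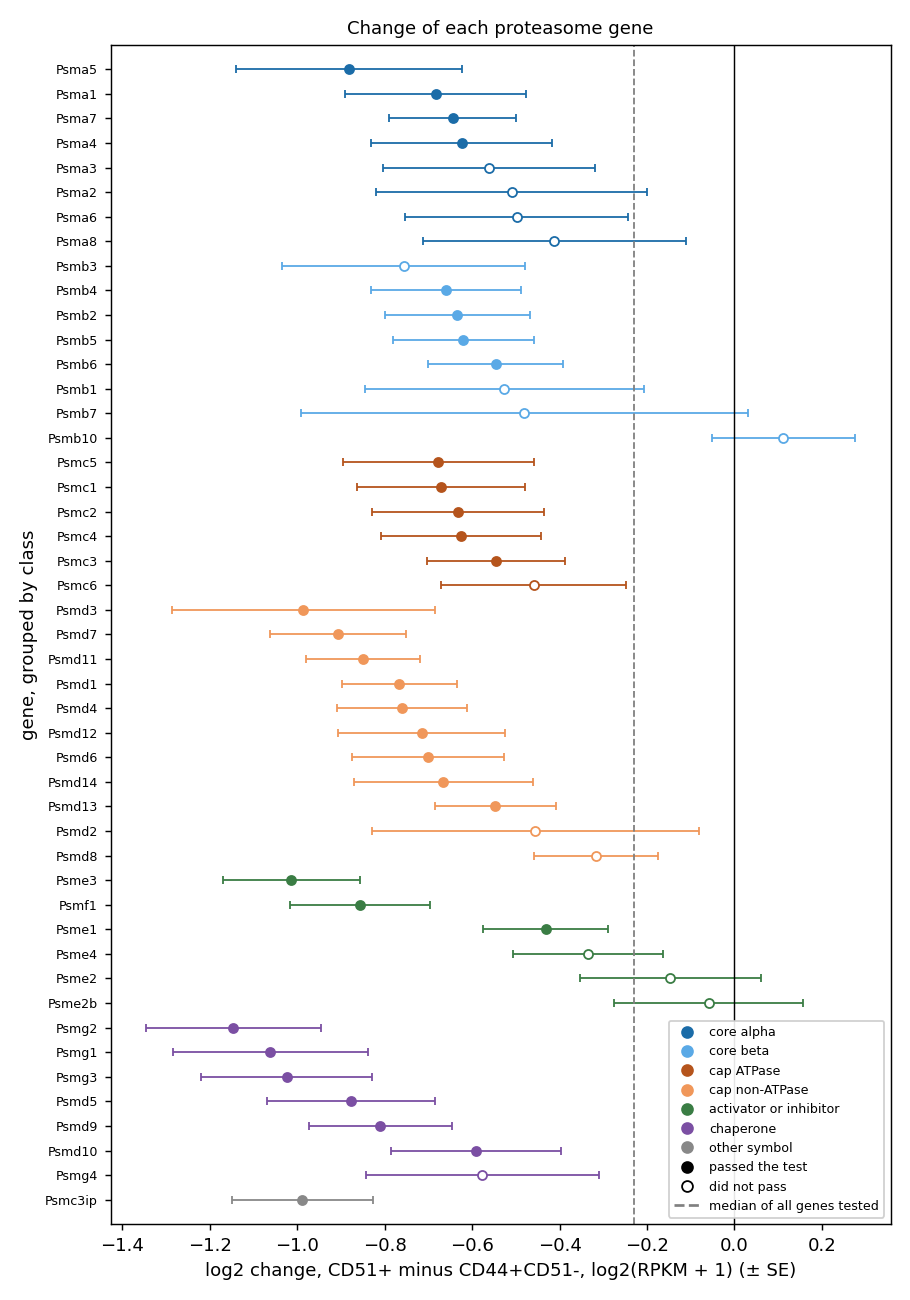
Log2 change of each proteasome gene tested, CD51+ minus CD44+CD51-, in units of log2(RPKM + 1) (x axis, point ± SE), by class (y axis); filled points passed the test at an adjusted p under 0.05, open points did not, and the dashed line is the median of all genes tested (-0.23). Psmg2 lies lowest at -1.15 and Psmb10 highest at 0.11, and 44 of the 47 are left of 0 after TMM scaling too.

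Of the 6 activators and inhibitors, 3 fell, where 29.7% of all genes did, and the median log2 change of the 6 was -0.38. With TMM scaling 2 passed, where 19.1% of all genes fell, and the median of the 6 was -0.15. Summed RPKM was 309, 347 and 394 in CD51+ libraries, against 546, 544 and 501 in CD44+CD51- libraries. Psme3, which forms a nuclear activator ring on its own, had 106, 114 and 129.6 RPKM in CD51+ libraries, against 259, 225 and 222 RPKM in CD44+CD51- libraries. Its CD51+ libraries did not reach the CD44+CD51- range; the ratio of means was 0.494, with a fall of 1.01 on the log2 scale (SE 0.16, adjusted p = 0.00192). Psmf1, known as an inhibitor of the core, had 15.8, 17.5 and 21.6 RPKM in CD51+ libraries, against 31.5, 37.4 and 32.4 RPKM in CD44+CD51- libraries and fell by 0.86 (SE 0.16, adjusted p = 0.00417), again with no overlap. Both were called under every alternative.

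Psme1 and Psme2 together form the interferon-inducible activator ring, and their genes lie close together on chromosome 14 of GRCm38 (Psme1 from 55578123 to 55581529, plus strand; Psme2 from 55587441 to 55591113, minus strand). Psme1 had 88.6, 84.0 and 95.9 RPKM in CD51+ libraries, against 133, 121 and 109.9 RPKM in CD44+CD51- libraries and fell by a smaller step (-0.43 ± 0.14, adjusted p = 0.0389). That call was lost under 9 of 17 alternatives, TMM scaling among them (log2 change -0.19, adjusted p = 0.295). Psme2 had 86.1, 116 and 130.2 RPKM in CD51+ libraries, against 104, 141 and 120.2 RPKM in CD44+CD51- libraries. The groups overlapped, and the change of -0.15 ± 0.21 (adjusted p = 0.568) turned to 0.10 with TMM scaling and 0.062 with quantile normalization. Psme2b, an intronless near copy of Psme2 on chromosome 11, had 5.78, 8.89 and 9.01 RPKM in CD51+ libraries, against 6.84, 9.95 and 7.85 RPKM in CD44+CD51- libraries. Its reads cannot be told with certainty from those of Psme2, and its level was 0.0709 ± 0.00485 of that of Psme2 in CD51+ cells and 0.0670 ± 0.00292 in CD44+CD51- cells. Its change of -0.06 ± 0.22 (adjusted p = 0.831) turned to 0.16 with TMM scaling. Psme4, a large activator linked to DNA repair and spermatogenesis, had 6.79, 6.79 and 8.09 RPKM in CD51+ libraries, against 11.3, 9.15 and 7.85 RPKM in CD44+CD51- libraries. CD51+ library 3 lay above CD44+CD51- library 3, and the change of -0.34 ± 0.17 did not pass (adjusted p = 0.14).

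Psme1 was also set against Psme3 within each library. The difference of log2(RPKM + 1), Psme1 minus Psme3, was -0.25, -0.43 and -0.43 in CD51+ libraries and -0.96, -0.89 and -1.01 in CD44+CD51- libraries. The libraries of the groups did not overlap, and the gap of 0.58 gave an exact two-sided permutation p = 0.1, the smallest that 3 against 3 can give. This ratio does not depend on how libraries were scaled to each other, apart from the pseudocount of 1.

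The chaperones had the lowest median change of the 6 classes. Of 7 chaperones, 6 fell, against 29.7% of all genes, and the chaperones' median log2 change was -0.88. With TMM scaling 5 passed, where 19.1% of all genes fell, and the chaperones' median was -0.64. For all 7, every CD51+ library lay below every CD44+CD51- library, against 37.5% of all genes. Summed RPKM was 213, 303 and 345 in CD51+ libraries, against 474, 565 and 571 in CD44+CD51- libraries. Whether the chaperones differed from the other classes was not tested.

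Psmg1 and Psmg2 form the pair that starts the ring of alpha subunits. Psmg2 had 66.0, 83.0 and 105 RPKM in CD51+ libraries, against 169.7, 188 and 201 RPKM in CD44+CD51- libraries and fell by 1.15 on the log2 scale, the largest fall of all members (SE 0.20, adjusted p = 0.00319). Psmg1, whose promoter stretch carries CCGGAAG, had 40.9, 53.7 and 70.1 RPKM in CD51+ libraries, against 96.1, 120.5 and 125 RPKM in CD44+CD51- libraries and fell by 1.06 (SE 0.22, adjusted p = 0.00677). Library 1 was the lowest of each group for both genes. Psmg3 and Psmg4 form the pair that helps the ring to close. Psmg3 had 7.45, 10.8 and 12.2 RPKM in CD51+ libraries, against 19.4, 23.0 and 21.7 RPKM in CD44+CD51- libraries and fell by 1.02 (SE 0.20, adjusted p = 0.00457). Psmg4 had 37.1, 72.3 and 69.2 RPKM in CD51+ libraries, against 76.9, 89.7 and 91.1 RPKM in CD44+CD51- libraries. Its CD51+ library 1 lay far below the others, and the change of -0.58 ± 0.27 did not pass (adjusted p = 0.106), although it did with the block (adjusted p = 0.0165) and without the libraries numbered 1 (log2 change -0.35, adjusted p = 0.0225).

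The chaperones of the cap ATPases fell as well. Psmd5 had 19.2, 28.2 and 29.7 RPKM in CD51+ libraries, against 43.1, 50.4 and 48.6 RPKM in CD44+CD51- libraries (log2 change -0.88 ± 0.19, adjusted p = 0.00791). Psmd9 had 11.3, 14.1 and 15.1 RPKM in CD51+ libraries, against 21.1, 26.6 and 25.3 RPKM in CD44+CD51- libraries (log2 change -0.81 ± 0.16, adjusted p = 0.00574); 25.5% of its exon bases overlap Gm26745 on the opposite strand. Psmd10, also known as gankyrin, had 30.5, 41.0 and 43.6 RPKM in CD51+ libraries, against 48.2, 67.4 and 58.9 RPKM in CD44+CD51- libraries (log2 change -0.59 ± 0.20, adjusted p = 0.038). In all 3 genes library 1 was the lowest of its group.

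Of the 4 symbols outside the complex, Psmc3ip, which encodes a partner of the meiotic recombinases and not a proteasome subunit, had 9.24, 10.2 and 12.3 RPKM in CD51+ libraries, against 19.2, 23.1 and 23.6 RPKM in CD44+CD51- libraries and fell by 0.99 (SE 0.16, adjusted p = 0.00243). It shares 21.2% of its exon bases with Mlx on the opposite strand. The pseudogenes Psmb5-ps and Psmb6-ps were listed at 0 in all libraries, and Psmb6-ps2 did not exceed 0.351 RPKM.

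Across the 47 members, log2 mean RPKM in CD51+ cells correlated with that in CD44+CD51- cells at r = 0.986, a description over genes measured in the same libraries. The mean level of the core subunits (Psma1 to Psma7 and Psmb1 to Psmb7) was 1.97 ± 0.110 times that of the cap subunits in CD51+ libraries and 1.90 ± 0.0511 times in CD44+CD51- libraries. Genes of 1 complex were not at 1 level, however. From the highest to the lowest core gene, RPKM differed by 56.3, 13.7 and 12.8 times in CD51+ libraries, against 61.4, 13.4 and 12.7 times in CD44+CD51- libraries. The lowest was Psmb7 in every library, and its own level was lowest in library 1 of each group. RPKM appeared to be scaled to all annotated exons of a gene, which for Psmb7 is 3421 bases against 1160 in its longest coding transcript. Scaled to that transcript instead, Psmb7 averaged 74.0 per kilobase in CD51+ cells and 101 in CD44+CD51- cells, and Psmb1 averaged 1130.6 in CD51+ cells and 1688.6 in CD44+CD51- cells.

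Libraries numbered 1 deviated in the same members in both groups. The difference on the log2(RPKM + 1) scale between library 1 and the mean of libraries 2 and 3 was negative in both groups for 33 of the 47 members, positive in both for 6 and of opposite sign for 8. Over all genes tested it was negative in both for 45.1%, positive in both for 25.9% and of opposite sign for 28.4%. For Psmb7 it was -1.51 in CD51+ cells and -1.25 in CD44+CD51- cells. Psmd2 lay the other way, at 1.27 in CD51+ cells and 0.57 in CD44+CD51- cells, as did Psmb1, at 0.49 in CD51+ cells and 0.94 in CD44+CD51- cells, and Psmd3, at 0.62 in CD51+ cells and 0.90 in CD44+CD51- cells. Across members these differences correlated between the groups at r = 0.895, and across all genes at 0.619. With the GC content of the gene's longest coding transcript they correlated at 0.37 in CD51+ cells and 0.35 in CD44+CD51- cells over the members, and at 0.35 in CD51+ cells and 0.22 in CD44+CD51- cells over 10627 genes. What set these libraries apart was not tested.

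**Figure D5:**
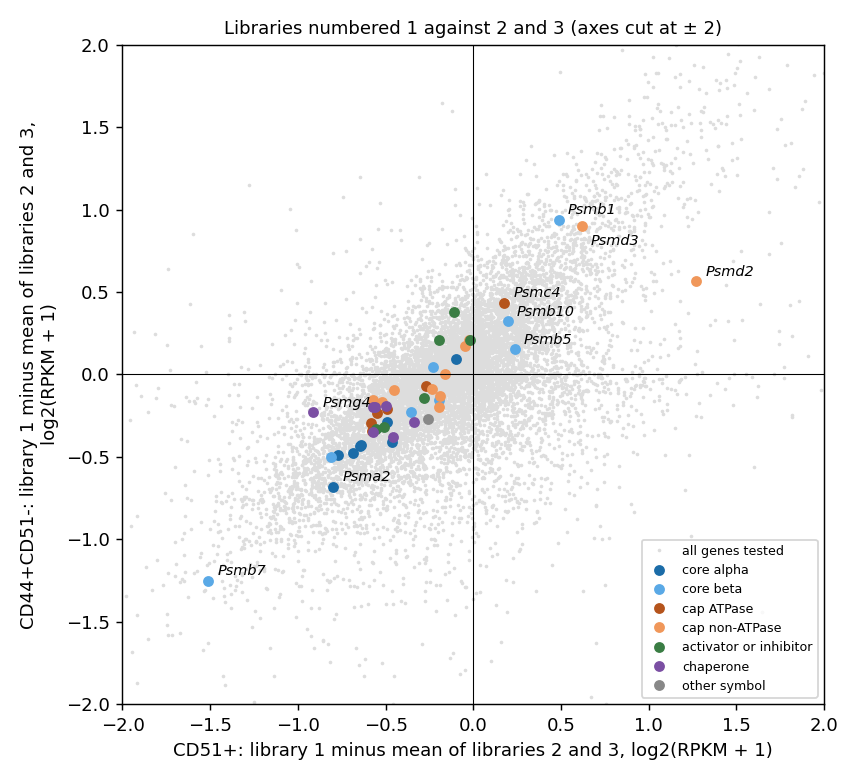
Library 1 minus the mean of libraries 2 and 3 on the log2(RPKM + 1) scale, in CD51+ (x axis) and CD44+CD51- (y axis) cells, for the 47 proteasome genes tested (coloured by class) and all genes tested (grey, cut at -2 and 2). Members spread along the diagonal (r = 0.895), from Psmb7 (-1.51 in CD51+, -1.25 in CD44+CD51-) to Psmd2 (1.27 in CD51+, 0.57 in CD44+CD51-), and 33 lie below 0 on both axes.

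Other genes of the ubiquitin and proteasome pathway were set beside the members. From a list of 33 partners, 32 were in the table and all 32 were tested, of which 15 fell and 1 rose, against 29.7% of all genes falling and 24.1% rising, with a median log2 change of -0.57. Without the libraries numbered 1, 19 fell, against 34.8% of all genes, and 3 rose, for which no share of all genes was counted. With the replicate block 20 fell and 3 rose, against 41.3% and 27.8% of all genes, and with TMM scaling 8 fell and 3 rose, against 19.1% and 28.0% of all genes. The largest falls were those of Ubqln4, a shuttle that carries ubiquitinated proteins to the proteasome, at 9.80, 17.3 and 16.4 RPKM in CD51+ libraries, against 32.0, 35.4 and 38.1 RPKM in CD44+CD51- libraries (log2 change -1.26 ± 0.22, adjusted p = 0.00342); Txnl1, a thioredoxin-like protein bound to the cap, at 130.5 ± 18.3 RPKM in CD51+ cells and 247 ± 14.2 RPKM in CD44+CD51- cells (-0.92 ± 0.16, adjusted p = 0.00339); and Adrm1, a ubiquitin receptor of the cap, at 22.4 ± 1.62 RPKM in CD51+ cells and 41.5 ± 2.18 RPKM in CD44+CD51- cells (-0.86 ± 0.13, adjusted p = 0.00162).

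Ubb, a polyubiquitin gene, was the 1 partner that rose, at 535, 528 and 616 RPKM in CD51+ libraries, against 389, 411 and 383 RPKM in CD44+CD51- libraries (log2 change 0.50 ± 0.17, adjusted p = 0.0437). Its groups did not overlap, but the call was lost when any library but CD51+ library 1 was left out, without the filter on low values, and with columns scaled to a common sum. Pomp, which matures the core, averaged 37.6 ± 9.89 RPKM in CD51+ cells and 48.1 ± 7.16 RPKM in CD44+CD51- cells (-0.37 ± 0.23, adjusted p = 0.21, or 0.0352 and lower with the replicate block). Shfm1, the small cap subunit also called Sem1, had 51.1, 141 and 124 RPKM in CD51+ libraries, against 33.6, 88.9 and 77.8 RPKM in CD44+CD51- libraries; it was higher in CD51+ cells in each same-numbered pair (0.64 ± 0.49, adjusted p = 0.301, or 0.00212 and higher with the block), while the libraries numbered 1 were low in both groups. Nfe2l1, the transcription factor that raises proteasome genes when the complex is inhibited, averaged 15.8 ± 2.87 RPKM in CD51+ cells and 14.6 ± 0.503 RPKM in CD44+CD51- cells, with a change of 0.10 ± 0.16 that did not pass (adjusted p = 0.629). Nfe2l2, named with it above for its binding motif, had 43.3, 49.9 and 56.1 RPKM in CD51+ libraries, against 70.5, 71.4 and 66.8 RPKM in CD44+CD51- libraries and fell by 0.48 on the log2 scale (SE 0.14, adjusted p = 0.0261). Its groups did not overlap, but it did not pass with TMM scaling (log2 change -0.24, adjusted p = 0.13), with quantile normalization (-0.30, adjusted p = 0.0706), or without CD51+ library 2 (adjusted p = 0.0745) or CD44+CD51- library 1, 2 or 3 (adjusted p = 0.0554, 0.0844 and 0.0679).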

How the data were processed

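RNA of 3 CD51+ and 3 CD44+CD51- libraries was purified with the RNeasy Plus Micro kit and made into Nextera XT libraries, per the labels' protocols. The authors deposited RPKM values, 1 column per library; the submitters' processing notes name GRCm38 and edgeR 3.16.5, while no aligner, read counter or annotation is given in the sources used here. RPKM holds no read counts, so no count test was run and depth is an estimate: with the exons of GENCODE M21 merged per gene, 89.6% of 32446 low values (up to 20 reads) came out within 0.05 of a whole read, where chance gives 10%. Intervals that need counts are therefore not given.

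Values were taken as log2(RPKM + 1), which understates changes of low genes, and tested with limma 3.58.1 in R 4.3.3, two-sided, with an intensity trend and Benjamini-Hochberg adjustment over all genes tested; the script was tested on simulated data. Ratios within a library were compared by exact permutation tests. Of entries sharing a symbol, the one with the highest mean was used. Same-numbered libraries deviated together from their group means (correlations over genes of 0.619, 0.286 and 0.516), and the block takes the numbers to pair the samples. Deviations within a group cancel out, so a shift shared by the libraries numbered 1 can raise the correlations of numbers 2 and 3. Libraries of unlike number were not compared, so pairing by number is an assumption. Blocked values stand beside results whose call they change. The labels do not say that libraries came from separate animals, so p-values measure only the spread between these samples.

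The members and all gene lists were chosen with earlier results of these data known. Named in full were, by rule, the catalytic genes, the activators, the inhibitor, the chaperones, Psma8, Psmb11, and in each core and cap class the genes of highest level and of the largest and smallest change. Psmd1, Psmd2, Psmc4, Psmc3ip and Nfe2l2 were added after their values were seen. Alternatives covered the pseudocount, filters on low values, scaling, the variance trend, the replicate block, each library left out and repeated symbols summed. Added after seeing the data were fits without the libraries numbered 1, with columns scaled to a common sum, and with TMM scaling and block together. Values of some partner genes in the list are not reported here. No sequence of a protein was used here.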

Additional observations from a re-analysis of the deposited data

How the results depend on the processing

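Under the 17 alternatives, 43 of the 47 members kept a negative change throughout; of 798 member values, 661 stayed on their side of the threshold with the same sign, 90 lost the call, 35 gained it and 12 changed sign. The count of 32 members lower in CD51+ became 16 with TMM scaling, where all 16 were among the 32, and ran from 16 to 31 when 1 library was left out. It was 28 with no filter on low values, where 21652 genes were tested, and 32 with RPKM of at least 5, where 7938 were. With a pseudocount of 0.1, without the intensity trend and with repeated symbols summed it was 32 too. For these settings the shares of all genes that fell were not counted. Nor were they counted without CD51+ library 1 or 3 or CD44+CD51- library 1. How many of all genes kept a negative change throughout was not counted either. No member was called higher under any alternative except TMM scaling with the replicate block, where 1 was (Psmb10). The replicate block alone gave 41 lower; apart from the calls gained by Psma2, Psma3, Psma6, Psmb1, Psmb3, Psmb7, Psmc6, Psmd8 and Psmg4 it changed no other member's call. The count of partner genes higher, 1, became 0 without the filter and with columns scaled to a common sum. It became 3 with TMM scaling, with the replicate block and without the libraries numbered 1. With TMM scaling and block it was 6, where 33.4% of all genes rose. It ran from 0 to 1 when 1 library was left out. The count of partner genes lower, 15, became 8 with TMM scaling and ran from 9 to 15 when 1 library was left out. Signs changed only for genes that did not pass in the setting without the change. When 1 library was left out, Psmb7 ran from -0.90 to 0.023 (without CD51+ replicate 1), Psmb10 from -0.0024 (without CD44+CD51- replicate 3) to 0.22, Psme2 from -0.27 to 0.024, Psme2b from -0.17 to 0.13 and Nfe2l1 from -0.034 to 0.21. With TMM scaling, with or without block, Psme2 was at 0.10 and Psme2b at 0.16; with quantile normalization Psme2 was at 0.062; with columns scaled to a common sum Psmb10 was at -0.21 and Nfe2l1 at -0.21; and without the libraries numbered 1 Psme2b was at 0.016. The difference in the ratio of Psmb10 to Psmb7 ran from 0.02 to 1.12 when 1 library was left out, and kept its sign, while no p of either ratio could pass 0.05 by design. The cause of these shifts was not tested. Depth is an estimate and limits Psma8 most.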
